A study of Caenorhabditis elegans with 6 samples.

Results

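The genes described here encode proteins of Mutator foci and of the RDE branch of RNA interference in *Caenorhabditis elegans*, and the values are the 22G-RNAs that lie antisense to their own transcripts. The group was chosen by gene name in the WBcel235 annotation and held *mut-7*, *mut-14*, *mut-15*, *mut-16*, *smut-1*, *rde-8*, *nyn-1*, *rde-10*, *rde-11* and *rde-12*. All 10 were among the 22336 loci counted, of which 22185 are genes and 151 are transposon families. Small RNAs were sequenced from whole gravid adults of the wild-type strain N2 and of strain RFK1256, *lotr-1(sam117) I*, with 3 libraries per genotype. Animals had grown for 65 hours on plates after L1 arrest. In *sam117* the coding sequence of *lotr-1* is removed by genome editing and a FLAG and GFP tag is left in its place, so every mutant library carries the same allele. LOTR-1 is a germ granule protein with LOTUS and Tudor domains that resides in Z granules.

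22G-RNAs are made by RNA-dependent RNA polymerases that copy a target transcript, and they load onto Argonaute proteins that silence or license that target. In the germline much of this amplification is assigned to Mutator foci, perinuclear granules that form next to P granules and Z granules. MUT-16 is the scaffold on which the other Mutator proteins assemble, and the RDE proteins act on transcripts that a primary small RNA has marked. The genes for this machinery are themselves transcribed in the germline and can become templates of the process they serve. The counts therefore describe these genes as targets. They do not measure their mRNA or protein, and the tissue label could not be checked against marker transcripts. In whole animals a change in the number of cells that make a 22G-RNA cannot be told apart from a change in its amount per cell.

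Libraries held 3150716 to 3829101 counts of 22G-RNAs at the listed loci, which is not the sequencing depth. A floor of 3 counts corresponded to between 7.83e-05% and 9.52e-05% of a library and covers counting error only. Libraries of 1 genotype differed from each other by more than counting noise (chi-square per degree of freedom 1.40 to 1.87 over 6 pairs), and nothing in the labels says whether they came from separate cultures, so p-values measure the spread between these libraries. At *lotr-1* itself the wild-type libraries gave 477, 522 and 563 counts and the mutant libraries 40, 49 and 60, in the direction of the labels. A list of 8 spermatogenesis genes, set up as a check of the stage, summed to 13 to 23 counts per wild-type library and 32 to 47 per mutant library. These are 22G-RNAs and not mRNA, so they cannot show the stage of the animals. Whether the stage of the animals plays a part in the results below was not tested. Each fold change sets the mutant against wild-type after division of counts by median-of-ratios size factors, which take the typical locus as unchanged. Scaling to equal 22G-RNA totals, which takes the whole pool as unchanged, moved the median of all 11682 tested loci from 0.04 to -0.77 on the log2 scale. Past 2-fold it gave 498 loci higher and 2331 lower, against 952 and 951 with size factors. Both scalings are therefore given where they differ.

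22G-RNAs fell by more than 2-fold at *smut-1*, which encodes a DEAD-box helicase closely related to MUT-14, and at *rde-8*, which encodes a ribonuclease that cleaves targeted transcripts. Of the other 8 genes 0 passed the DESeq2 test against 2-fold in either direction, with 0 at an unadjusted p under 0.05 and 0 called by edgeR, and 7 passed a separate DESeq2 test for a change smaller than 2-fold. The 8 log2 fold changes lay between -0.73 (*rde-10*) and 0.21 (*rde-11*). A call needed an adjusted p below 0.1 (Benjamini-Hochberg, over all tested loci). Over all tested loci 8.14% were called lower past 2-fold and 8.15% higher, and 44.7% of the loci given an adjusted p-value in the third test were called under 2-fold. With total-count scaling *smut-1* and *rde-8* were again the 2 genes past 2-fold, where the background of lower calls was 20.0%.

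**Figure D1:**
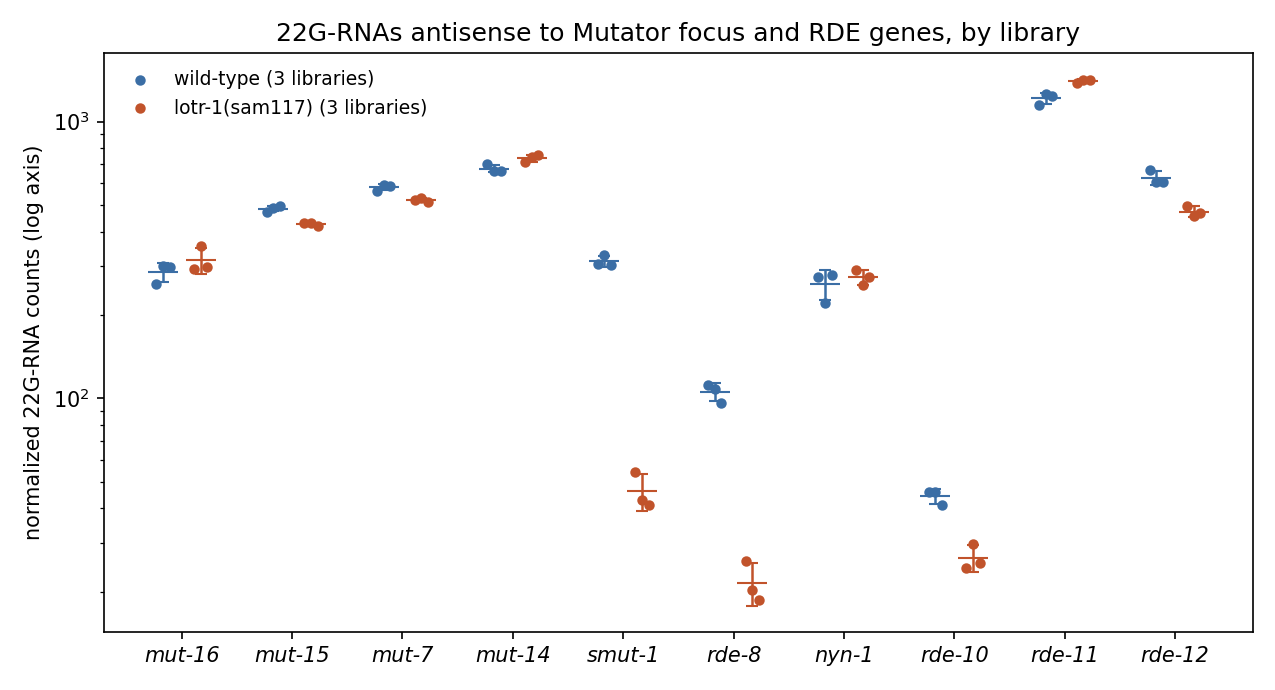
Normalized 22G-RNA counts (log axis) at the 10 genes in each library, with the mean and SD of 3 libraries per genotype. At *smut-1* and *rde-8* every *lotr-1(sam117)* library lies several-fold below every wild-type library. At *rde-10*, *rde-12*, *mut-7* and *mut-15* every mutant library also lies below every wild-type library, by less. At *mut-14* and *rde-11* every mutant library lies slightly above every wild-type library. At *mut-16* and *nyn-1* the genotypes overlap.

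*smut-1* (WBGene00021391, chromosome V, 6097105 to 6099083, plus strand, 5 exons) gave 358, 439 and 445 counts in wild-type, against 40, 36 and 31 in the mutant libraries. Every mutant library was far below every wild-type library. Normalized counts were 313 ± 14.6 and 46.1 ± 7.1 (SD, n = 3), a 6.80-fold fall (log2 fold change -2.76, SE 0.188, DESeq2 adjusted p = 1.43e-19 against 2-fold). This was among the stronger falls of the data, with 3.53% of tested loci at a lower log2 fold change. Scaled to equal totals it stood at -3.55 on the log2 scale (SE 0.182, DESeq2 adjusted p = 3.76e-43). Its exons share 92 bases with those of *crt-1*, the calreticulin gene, on the opposite strand, and counting used strand.

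*mut-14* (WBGene00003507, chromosome V, 5658713 to 5660704, minus strand, 5 exons) encodes the other helicase of the pair, which acts redundantly with SMUT-1 in the germline. The wild-type libraries gave 824, 885 and 973 counts and the mutant libraries 526, 623 and 567. After size factors these became 701, 664 and 665 against 714, 742 and 754, so that the mutant libraries lay slightly above. The log2 fold change of 0.12 (95% interval -0.03 to 0.28) was not past the test against no change (DESeq2 adjusted p = 0.215) and was past the test for a change under 2-fold (adjusted p = 3.66e-28). With total-count scaling the direction turned, to a log2 fold change of -0.66.

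The ratio of the helicase genes within a library does not depend on any scaling. For each 100 counts at *mut-14* there were 43.4, 49.6 and 45.7 counts at *smut-1* in wild-type, against 7.60, 5.78 and 5.47 in the mutant libraries. The ratio was 7.36-fold lower in the mutant, and the genotypes did not overlap (exact two-sided permutation test, p = 0.1, the smallest that 3 libraries against 3 allow). This ratio and the 2 gene ratios given below were chosen after the values had been seen. The authors placed a read that fits several positions at 1 of them at random, so stretches shared by these related genes could exchange counts, and the extent of that was not tested. With both genes summed the log2 fold change was -0.34 (SE 0.0702, DESeq2 adjusted p = 7.74e-06 against no change and 1 against 2-fold). The mean at *smut-1* was 267 normalized counts lower in the mutant and that at *mut-14* was 60.1 higher.

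*rde-8* (WBGene00022620, chromosome IV, 7101379 to 7103261, minus strand, 7 exons) gave 131, 144 and 141 counts in wild-type, against 19, 17 and 14 in the mutant libraries. The mutant libraries were again far below the wild-type libraries, although at fewer counts than for *smut-1*. Normalized counts were 105 ± 7.93 and 21.6 ± 3.75 (SD, n = 3), a 4.89-fold fall (log2 fold change -2.29, SE 0.291, DESeq2 adjusted p = 9.06e-05 against 2-fold). Scaled to equal totals it stood at -3.08 on the log2 scale (SE 0.280, DESeq2 adjusted p = 1.46e-12). RDE-8 carries a NYN domain, a ribonuclease fold that it shares with NYN-1 and NYN-2.

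*nyn-1* (WBGene00011959, chromosome IV, 13685076 to 13687015, minus strand, 4 exons) encodes a paralog of RDE-8 that is also found in Mutator foci. It gave 323, 294 and 408 counts in wild-type, against 214, 215 and 206 in the mutant libraries. After size factors these became 275, 221 and 279 against 290, 256 and 274, and the genotypes overlapped. The log2 fold change was 0.08 (95% interval -0.17 to 0.34, DESeq2 adjusted p = 0.679 against no change), and the change was called smaller than 2-fold (adjusted p = 1.71e-11). It became -0.035 without wild-type replicate 2 and -0.71 with total-count scaling. For each 100 counts at *nyn-1* there were 40.6, 49.0 and 34.6 counts at *rde-8* in wild-type, against 8.88, 7.91 and 6.80 in the mutant libraries, a 5.26-fold lower ratio with no overlap (exact two-sided permutation test, p = 0.1, the smallest possible).

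**Figure D2:**
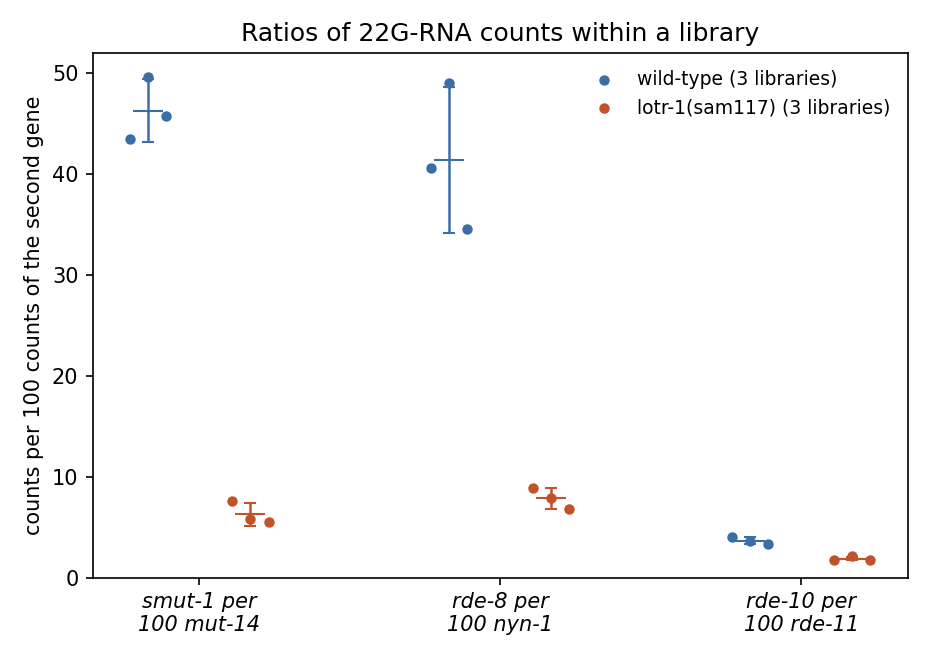
Counts at 1 gene for each 100 counts at a related or partner gene, computed within each library, with the mean and SD of 3 libraries per genotype. The ratios of *smut-1* to *mut-14* and of *rde-8* to *nyn-1* are between 34.6 and 49.6 in every wild-type library and between 5.47 and 8.88 in every *lotr-1(sam117)* library.

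The changes at the structural genes of Mutator foci were called smaller than 2-fold with size factors. *mut-16* (WBGene00003508, chromosome I, 10080159 to 10085765, plus strand, 14 exons), the scaffold gene, gave 304, 401 and 435 counts in wild-type, against 216, 297 and 225 in the mutant libraries. After size factors the genotypes overlapped, at 286 ± 23.5 and 315 ± 33.4 (SD, n = 3). The log2 fold change was 0.14 (95% interval -0.10 to 0.38, DESeq2 adjusted p = 0.391 against no change), and it was -0.65 with total-count scaling. Both scalings called it smaller than 2-fold (DESeq2 adjusted p = 1.62e-11 and 0.0145).

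*mut-15* (WBGene00011323, chromosome V, 15002543 to 15005067, plus strand, 11 exons) encodes another constituent of Mutator foci and gave 556, 649 and 722 counts in wild-type, against 316, 360 and 314 in the mutant libraries. Normalized counts were 485 ± 10.4 and 425 ± 6.40 (SD, n = 3), with all mutant libraries below all wild-type libraries. The log2 fold change of -0.19 (95% interval -0.37 to -0.01) missed the threshold of the test against no change (DESeq2 adjusted p = 0.101). *mut-7* (WBGene00003504, chromosome III, 9539031 to 9542380, minus strand, 8 exons), which encodes a protein with an exonuclease domain, gave 661, 786 and 854 counts in wild-type, against 385, 443 and 385. Its mutant libraries were also all slightly lower, at 521 ± 7.92 against 579 ± 14.5 normalized counts (SD, n = 3). The log2 fold change of -0.15 (95% interval -0.32 to 0.02) was not past the test against no change either (DESeq2 adjusted p = 0.162). The adjusted p-values of *mut-15* and *mut-7* for a change under 2-fold were 6.15e-17 and 1.31e-21 (DESeq2). With total-count scaling they stood at -0.98 and -0.94, close to 2-fold, and neither was then called past 2-fold or under it.

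The other RDE genes, *rde-11*, *rde-10* and *rde-12*, had log2 fold changes of 0.21, -0.73 and -0.41 with size factors and were all lower with total-count scaling. *rde-11* (WBGene00023421, chromosome IV, 13105200 to 13106927, plus strand, 8 exons) encodes a zinc finger protein that works in a complex with RDE-10 when exogenous double-stranded RNA is amplified. The wild-type libraries gave 1351, 1673 and 1806 counts and the mutant libraries 1015, 1189 and 1059, the highest counts of the group. After size factors the mutant libraries were all higher, at 1401 ± 20.9 against 1213 ± 56.2 (SD, n = 3), and the 1.15-fold rise passed the test against no change (log2 fold change 0.21, SE 0.0618, DESeq2 adjusted p = 0.00284). It was -0.58 with total-count scaling, so the direction depends on the scaling, while the change was called smaller than 2-fold with both (DESeq2 adjusted p = 4.71e-36 and 3.43e-10).

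*rde-10* (WBGene00021634, chromosome I, 3547071 to 3552005, plus strand, 11 exons) had the lowest counts of the group in wild-type, at 54, 61 and 60, against 18, 25 and 19 in the mutant libraries. The mutant libraries were all lower after size factors, at 26.5 ± 2.88 against 44.2 ± 2.81 (SD, n = 3). The log2 fold change of -0.73 (95% interval -1.38 to -0.09) passed the test against no change (DESeq2 adjusted p = 0.0659), but not when any single library was left out (DESeq2 adjusted p from just above the threshold to 0.180). It was called neither past 2-fold nor under it, so its size was not settled at this depth. With total-count scaling it was -1.52 (DESeq2 adjusted p = 0.362 against 2-fold). Its exons share 57 bases with Y47G6A.21 on the opposite strand. For each 100 counts at *rde-11* there were 4.00, 3.65 and 3.32 counts at *rde-10* in wild-type, against 1.77, 2.10 and 1.79 in the mutant libraries, a 1.93-fold lower ratio without overlap (exact two-sided permutation test, p = 0.1, the smallest possible).

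*rde-12* (WBGene00010280, chromosome V, 13665389 to 13669292, plus strand, 7 exons) encodes a DEAD-box helicase that binds targeted transcripts. It gave 787, 806 and 886 counts in wild-type, against 366, 382 and 351 in the mutant libraries, which were lower with both scalings. The 1.32-fold fall after size factors (log2 fold change -0.41, SE 0.0904) passed the test against no change (DESeq2 adjusted p = 3.31e-05) and the test for a change under 2-fold (adjusted p = 3.02e-10). With total-count scaling it was -1.19, just outside the threshold of the test against 2-fold (DESeq2 adjusted p = 0.102). The 3 helicase genes of the group thus had log2 fold changes of -2.76 (*smut-1*), -0.41 (*rde-12*) and 0.12 (*mut-14*).

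**Figure D3:**
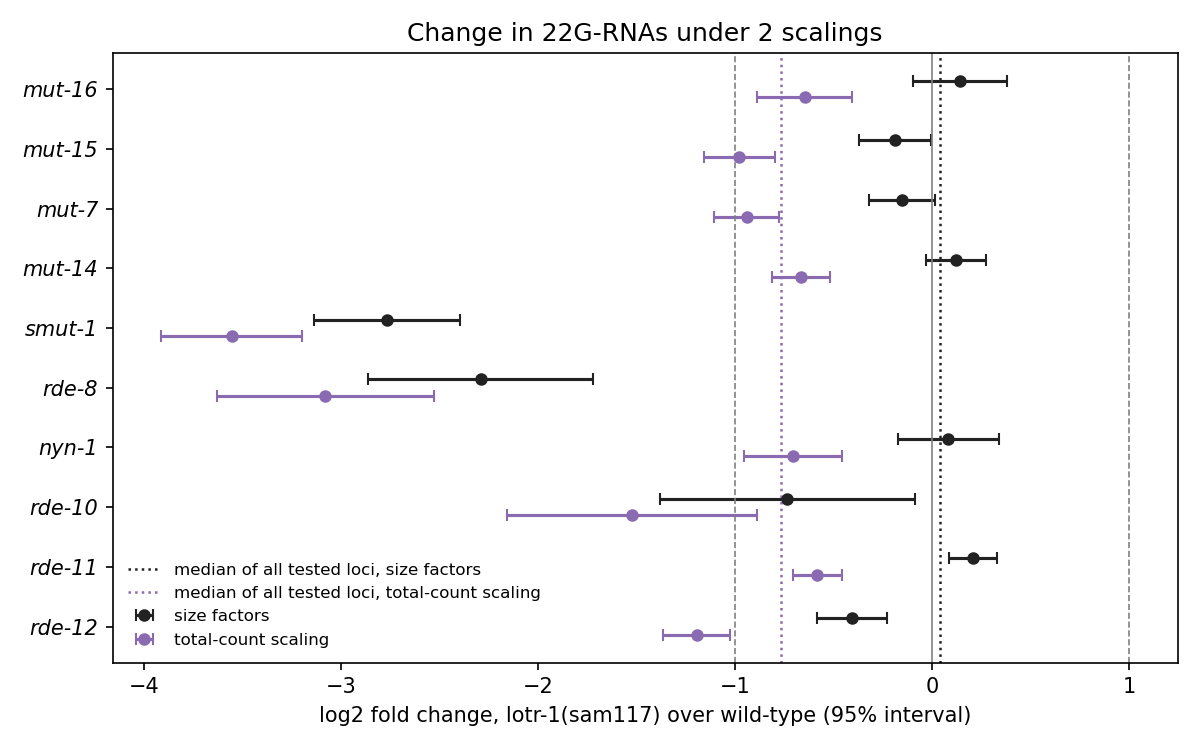
Log2 fold changes of 22G-RNAs, *lotr-1(sam117)* over wild-type, with 95% intervals from the standard error, under 2 scalings. Dashed lines mark 2-fold, and dotted lines mark the medians of all tested loci at 0.04 and -0.77. *smut-1* and *rde-8* lie to the left of the 2-fold line with both scalings. With total-count scaling *rde-10* (-1.52) and *rde-12* (-1.19) also lie to its left, although neither was called past 2-fold.

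Over the 10 genes the median log2 fold change was -0.17 with size factors, beside 0.04 for all tested loci, and -0.96 with total-count scaling, beside -0.77. In the DESeq2 test against no change 1 gene was higher (*rde-11*) and 4 were lower (*smut-1*, *rde-8*, *rde-10* and *rde-12*), where 20.4% and 22.7% of all tested loci were called in these directions. Libraries of the genotypes did not overlap at 6 genes that were lower and 2 that were higher, against 31.4% and 29.7% of tested loci. With total-count scaling all 10 genes were lower in the test against no change and without overlap, but so were 46.7% and 59.7% of loci. None was higher by either measure (0 of 10 also at an unadjusted p under 0.05), against 9.22% and 13.8% of loci. Under that scaling 4 of the genes were called under 2-fold, against a background of 20.9%. Apart from the calls past 2-fold, these counts changed with the scaling.

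As a share of the whole 22G-RNA pool, which is the total-count scaling, the 10 genes together took 0.170%, 0.178% and 0.176% of all 22G-RNA counts in wild-type, against 0.0925%, 0.0941% and 0.0934% in the mutant libraries. The typical tested locus was also lower on this scale, at the median log2 fold change of -0.77 given above. The share of each gene in the sum of the 10 does not depend on the scaling between libraries. Within this sum *rde-11* was the largest part in every library, at 26.4% ± 1.05 in wild-type and 33.0% ± 0.416 in the mutant (SD, n = 3). *mut-14* took 14.8% ± 0.558 in wild-type and 17.4% ± 0.497 in the mutant. *smut-1* took 6.82% ± 0.291 and 1.09% ± 0.170, and *rde-8* took 2.30% ± 0.182 and 0.508% ± 0.0894. The shares of these genes did not overlap between genotypes (exact two-sided permutation test for each gene, p = 0.1, the smallest possible). The same held for *mut-15*, *mut-16*, *rde-10* and *rde-12*, while *mut-7* and *nyn-1* overlapped (exact two-sided permutation test, p = 0.2 and 0.3). Libraries without overlap were common over all loci, at 31.4% of tested loci lower and 29.7% higher with size factors. With total-count scaling these were 59.7% and 13.8%. No such background was computed for shares of the 10-gene sum. Because shares sum to a whole, a fall at some genes raises the others.

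Levels were compared between genes as CPM per kilobase of merged exon, where CPM is the count scaled to the 22G-RNA total of its library. In wild-type *rde-11* stood highest, at 342 ± 21.4, and *mut-14* next, at 147 ± 2.21 (SD, n = 3). *mut-15* followed at 89.7 ± 3.29. *mut-7* (73.8 ± 3.07), *rde-12* (72.5 ± 3.09), *smut-1* (67.8 ± 4.04) and *nyn-1* (60.1 ± 7.01) formed a stretch in which each gene overlapped the next. *rde-8* (35.9 ± 2.48) and *mut-16* (31.8 ± 3.12) also overlapped, and *rde-10* was lowest, at 8.02 ± 0.489.

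Among 19725 protein-coding genes these levels are high for most of the group. In wild-type 7 of the genes were above the 90th percentile in every library, and *rde-11* was between the 98.6th and 98.8th. In *lotr-1(sam117)* the order from *rde-11* to *mut-7* was kept, with *rde-11* at 228 ± 4.57 and *mut-14* at 92.8 ± 3.18 CPM per kilobase (SD, n = 3). *smut-1* dropped from the sixth place to the eighth, at 5.78 ± 0.855, and *rde-8* from the eighth to the ninth, at 4.26 ± 0.715. As percentiles, *smut-1* went from between 92.9 and 93.6 to between 69.6 and 72.9, and *rde-8* from between 85.1 and 87.2 to between 66.1 and 69.4. *mut-16*, at 20.3 ± 2.18 in the mutant, moved above both, and its percentile was 83.0 to 85.4 in wild-type and 87.2 to 89.4 in the mutant.

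**Figure D4:**
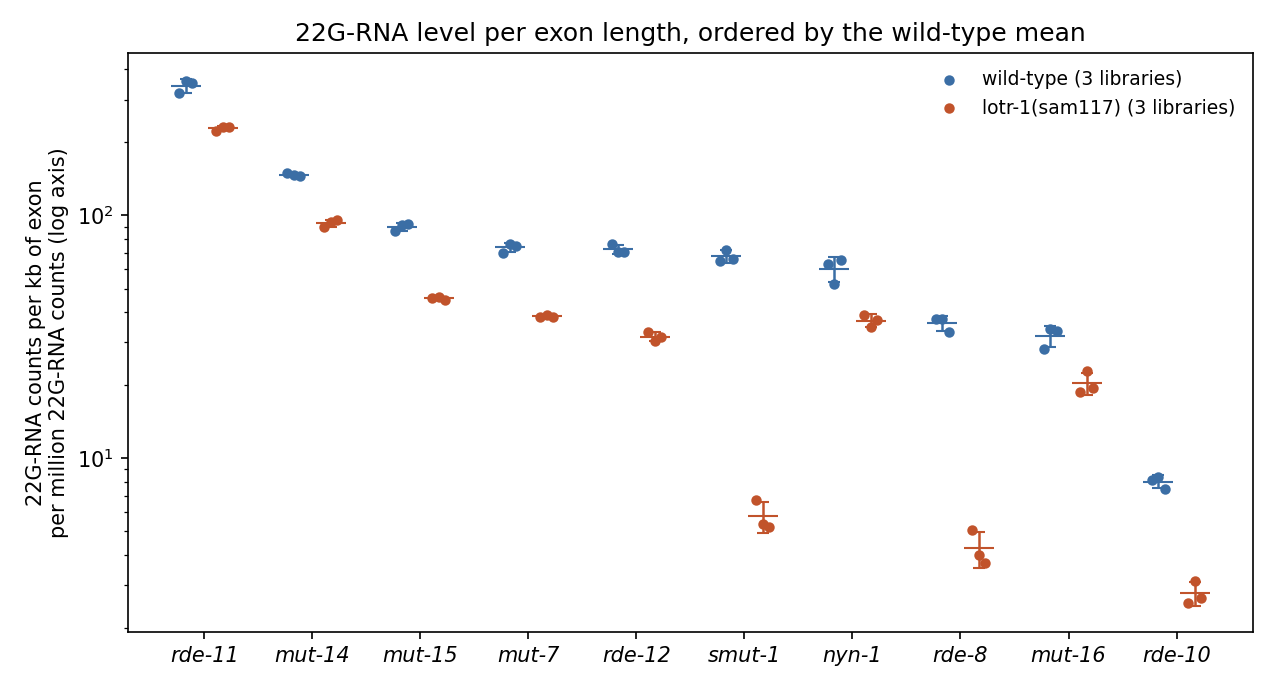
22G-RNA level in CPM per kilobase of merged exon (log axis), with genes ordered by the wild-type mean and bars for the mean and SD of 3 libraries. *rde-11* is highest and *rde-10* lowest in both genotypes. *smut-1*, *rde-8* and *rde-12* stand lower in the order of the mutant than in that of wild-type, and *nyn-1* and *mut-16* stand higher.

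The positions of the genes were examined as well. Of the 10 genes 4 lie on chromosome V, 3 on IV, 2 on I and 1 on III, and none shares exon bases with another gene on its own strand. Of the 40 flanking protein-coding genes (2 on each side of each gene), 26 received an adjusted p-value. DESeq2 called 0 lower past 2-fold (0 at an unadjusted p under 0.05, and 0 with edgeR) and 1 higher. This was C14C11.1 beside *mut-14*, where the log2 fold change was 1.70 (SE 0.177, DESeq2 adjusted p = 7.06e-04). After scaling to equal totals 3 of these genes were called lower and 0 higher. Over all tested loci the shares called lower and higher were 8.14% and 8.15% with size factors and 20.0% and 4.26% with equal totals. The gene 12 bases from *smut-1* on the same strand, Y38A10A.7, had a log2 fold change of -0.51 (SE 0.176). The nearest gene to *rde-8*, ZC477.3, had -0.55 (SE 0.242). Both values were negative, as at *smut-1* and *rde-8*, but smaller in size. Neither gene passed the test against 2-fold (DESeq2 adjusted p = 1 for both), which does not ask about smaller falls. The test against no change is not given here for these neighbours. *crt-1*, which overlaps *smut-1* on the opposite strand, had a log2 fold change of 0.18 (SE 0.264). The nearest gene to *rde-12*, at 61 bases on the opposite strand, is *mip-2*, which encodes a LOTUS domain protein and had a log2 fold change of 0.14 (DESeq2 adjusted p = 1 against 2-fold).

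A list of 13 other genes of small RNA amplification was set beside the group. With size factors 0 passed the DESeq2 test against 2-fold in either direction, although 2 were lower at an unadjusted p under 0.05 and edgeR called the same number lower. The test against no change called 1 gene higher and 7 lower, where 20.4% and 22.7% of all tested loci were called, and 10 were called under 2-fold, where the background was 44.7%. The median log2 fold change of the list was -0.41. The lowest values were at *mut-2*, which encodes the nucleotidyltransferase of Mutator foci, and at *nyn-2*, the second paralog of *rde-8*. *mut-2* gave 109, 111 and 125 counts in wild-type, against 27, 22 and 16 in the mutant libraries (log2 fold change -1.64, SE 0.285, DESeq2 adjusted p = 0.148 against 2-fold). *nyn-2* gave 231, 235 and 274 counts, against 55, 64 and 45 (log2 fold change -1.41, SE 0.187, DESeq2 adjusted p = 0.168). Both fell in the test against no change (DESeq2 adjusted p = 5.36e-08 and 3.80e-13), so a 10% FDR in that test followed by a 2-fold cut would call both. Both were also past 2-fold with edgeR, with TMM factors and with total-count scaling. *mut-2* was also past it without *lotr-1(sam117)* replicate 1 (log2 fold change -1.87, DESeq2 adjusted p = 0.0800). Over all loci 1366 were called lower past 2-fold with edgeR, 1001 with TMM factors and 2331 with total-count scaling, against 951 in the main fit.

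The highest values of that list were at *simr-1*, which encodes a Tudor domain protein of SIMR foci, where the log2 fold change was 0.21 (SE 0.0750, DESeq2 adjusted p = 0.0131 against no change), and at *ego-1*, a germline RNA-dependent RNA polymerase gene, with 0.10 (SE 0.0809, adjusted p = 0.368). With total-count scaling both were negative, at -0.57 and -0.69, and 5 genes of the list were past 2-fold, all lower, where 20.0% of all tested loci were called lower and 4.26% higher. Among the NYN genes the log2 fold changes with size factors were thus -2.29 at *rde-8*, -1.41 at *nyn-2* and 0.08 at *nyn-1*.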

How the data were processed

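The deposited values were raw counts of 22G-RNAs per gene or transposon family in 3 wild-type and 3 *lotr-1(sam117)* libraries. The authors trimmed adapters with cutadapt 2.4, aligned reads to WBcel235/ce11 with Bowtie 1.2.2, with 1 mismatch and 1 random best position for repeated matches, and counted 22-base reads that start with G antisense to exons (Ensembl release 96) or transposons with featureCounts 1.6.2. Whether PCR duplicates were collapsed is not given in the sources used here. Symbols, exons and positions (1-based) came from Ensembl release 115 on the same assembly, so exon lengths may differ from those the authors counted over.

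All loci were fitted together with DESeq2 1.42.0 in R 4.3.3, at the study's thresholds of a 2-fold change and 10% FDR. Here the 2-fold change was built into the test. This is stricter than a 10% FDR against no change followed by a 2-fold cut. The paper does not say which form it used, so calls past 2-fold may differ from the study's. Wald tests asked for an absolute log2 fold change above 1, above 0, or below 1 (the lessAbs form). Each was adjusted by Benjamini-Hochberg over the loci left by the DESeq2 filter on low counts. With size factors 11682, 13386 and 8615 loci received an adjusted p-value, in that order of tests. With total-count scaling these were 11682, 14068 and 8615. The share of tested loci called in a test refers to these numbers. Scripts were tested on simulated data. Alternatives were total-count scaling, TMM factors, gene-only size factors, other count filters, edgeR 4.0.16, a replicate block, a 5% FDR, and leaving out each library. Single values were compared by exact permutation tests (scipy 1.17.1). The genes and lists were chosen with earlier results of these data known. Named genes were the 10 members, *lotr-1*, the flanking genes that a result turned on (chosen after their values were seen), *spe-9*, and from the list of 13 the 2 lowest and 2 highest. Sequences were not used here.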

Additional observations from a re-analysis of the deposited data

How the results depend on the processing

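*smut-1* and *rde-8* were past 2-fold under each alternative that kept them as separate entries, with log2 fold changes of -3.55 to -2.69 (DESeq2 or edgeR adjusted p from 3.76e-43 to 4.55e-13) and of -3.08 to -2.19 (adjusted p from 1.46e-12 to 0.00368), and no other of the 10 genes was past it. With *mut-14* and *smut-1* summed into 1 entry the log2 fold change was -0.34, which is not past 2-fold and is opposite in sign to that of *mut-14* alone. Scaling to equal totals moved the remaining results most. Against no change it called 0 of the 10 genes higher and 10 lower, it left 4 called under 2-fold, and it called 498 loci higher and 2331 lower past 2-fold. Of the 13 other amplification genes it called 5 lower past 2-fold, and 0 higher and 13 lower against no change. Of all tested loci it called 20.0% lower and 4.26% higher past 2-fold. Against no change the shares were 46.7% lower and 9.22% higher, and 20.9% were called under 2-fold. Log2 fold changes turned negative at *mut-14* (-0.66), *mut-16* (-0.65), *nyn-1* (-0.71), *rde-11* (-0.58), *simr-1* (-0.57) and *ego-1* (-0.69), where the median of all tested loci moved by a similar amount, from 0.04 to -0.77. *mut-2* and *nyn-2* were past 2-fold with total-count scaling (-2.43 and -2.20), with TMM factors (-1.69 and -1.46, 2 genes of the list) and with edgeR (-1.57 and -1.34, 2 genes). Over all loci TMM factors called 1001 lower past 2-fold and edgeR 1366, against 951 in the main fit. Keeping loci that reached 10 counts in 3 libraries, and edgeR, each called 3 of the 10 genes higher against no change (*mut-14*, *mut-16* and *rde-11*) and 2 of the 13. The shares of all loci called against no change under these settings are not given here. All 10 log2 fold changes stood slightly higher under both settings than in the main fit. *rde-11*, for example, was at 0.28 and 0.27 beside 0.21, and *mut-7* at -0.08 and -0.09 beside -0.15. The shift was close to even across the 10 genes, with *smut-1* at -2.69 and -2.70 beside -2.76. Both settings also recomputed the scaling factors from the loci they kept. The effect of that step alone was not tested.

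Leaving out each library in turn gave 2 genes past 2-fold, 7 under 2-fold, and 1 higher and 3 lower against no change each time. *rde-10* lost that call in each case, with a replicate block and at 5% FDR. The number of the 13 genes past 2-fold lower was 0 to 1, loci past 2-fold were 829 to 852 higher and 811 to 860 lower, and *nyn-1* ranged from -0.035 to 0.13. The difference in share of the 10-gene sum was -5.83 to -5.56 percentage points at *smut-1* and -1.89 to -1.71 at *rde-8*. No pairing of libraries of the same number was seen in the counts (correlations of deviations from the group means 0.00799, -0.0126 and 0.0319 over 4070 loci). The labels do not say whether they shared a culture or day. With a replicate block 2 genes stayed past 2-fold, 1 was higher and 3 lower against no change, and 834 loci were higher and 822 lower. Depth limits *rde-10* and *rde-8* most, whose mutant libraries held 14 to 25 counts.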

Other observations

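A list of 8 genes of spermatogenesis, set up as a check of the stage, carried few 22G-RNAs in any library. Over the whole list there were 23, 13 and 23 counts in wild-type, against 32, 32 and 47 in the mutant libraries. Much of the mutant sums came from 1 gene, *spe-9*, and 22G-RNA counts cannot show the stage. Of the 3 that received an adjusted p-value in the DESeq2 test against 2-fold, *spe-9*, which encodes a sperm surface protein needed for fertilization, rose from 3, 3 and 5 counts to 19, 16 and 19 (log2 fold change 3.08, SE 0.640, adjusted p = 0.00880). It was not past 2-fold with total-count scaling (log2 fold change 2.29, DESeq2 adjusted p = 0.200).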
